A study of Mus musculus with 12 samples.

Results

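The 9 genes described here encode growth factors of the vascular endothelial growth factor (VEGF) and platelet-derived growth factor (PDGF) families and the receptors for PDGF: the VEGF-type ligands Vegfa, Vegfb, Vegfc and Pgf, the PDGF ligands Pdgfa, Pdgfb and Pdgfc, and the receptors Pdgfra and Pdgfrb. They were chosen by gene family from 23282 rows of counts, 44 of which repeat a gene symbol. Their counts in the 12 libraries and the differences between the groups were already known. The fitted differences and adjusted p-values of these genes therefore describe the data and are not independent evidence. All 9 genes passed the filter on low counts, as did 12425 rows in all, which are called genes below. All libraries are of C22, a line of mouse airway club cells on the H-2Kb-tsA58 transgenic background, which was immortalized with a temperature-sensitive large T antigen and is maintained with interferon-γ. For experiments, the paper's methods move the cells to conditions without interferon-γ that inactivate this antigen. The study asked how Pdcd5, a small protein linked to cell death, takes part in the transcriptional response of these cells to TGF-β1.

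There were 4 groups of 3 libraries. NC cells were negative controls for the knockdown and received no TGF-β1. NC + TGF-β1 cells were the same controls given 20 ng/ml TGF-β1 for 24 h after serum starvation. The siPdcd5 cells carried Pdcd5 knockdown by siRNA without TGF-β1, and siPdcd5 + TGF-β1 cells carried the knockdown and received the same dose for the same time. All 4 groups share the line and its transgene, and all results come from this 1 line in culture. The labels do not say whether the 3 libraries of a group came from separate cultures, so the p-values measure the spread between libraries, which may be technical.

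VEGF and PDGF ligands are secreted dimers that share a cystine-knot fold and signal through receptor tyrosine kinases. VEGF-A drives the growth and permeability of blood vessels through the receptors Flt1 and Kdr, VEGF-B and placental growth factor (the product of Pgf) bind Flt1, and VEGF-C and VEGF-D, once cleaved, act on lymphatic vessels through Flt4. PDGF-A and PDGF-C signal through Pdgfra, while PDGF-B binds both PDGF receptors, and in the lung these ligands are secreted by epithelium and other cells and act on fibroblasts, myofibroblast precursors and pericytes.

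Counts on genes came to between 12809857 and 17714828 per library, and 3 counts correspond to 0.165 to 0.239 counts-per-million (CPM), computed with TMM-scaled library sizes. The targeted gene bore out the labels: Pdcd5 was measured at 65.1 to 73.5 CPM in NC, 66.3 to 69.7 CPM in NC + TGF-β1, 20.0 to 22.1 CPM in siPdcd5 and 21.8 to 26.3 CPM in siPdcd5 + TGF-β1. Of 11 markers of club and airway epithelium, 4 passed the filter (Foxa2, Cdh1, Krt8 and Krt18), whereas the club cell secretoglobin Scgb1a1 had 1 count in 1 of the 12 libraries, Epcam 1 count in another, and Cyp2f2 and Scgb3a2 none. The summed level of these markers was 834 to 880 CPM in NC, 1292 to 1726 CPM in NC + TGF-β1, 760 to 895 CPM in siPdcd5 and 1649 to 1722 CPM in siPdcd5 + TGF-β1. Of 10 fibroblast and pericyte markers, 4 passed (Col1a1, Col1a2, Col3a1 and Dcn), with a sum of 3744 to 3979 CPM in NC, 7417 to 8037 CPM in NC + TGF-β1, 2533 to 3114 CPM in siPdcd5 and 5585 to 5938 CPM in siPdcd5 + TGF-β1, while Tcf21, Lum and Rgs5 were at or near 0. Endothelial markers, among them Flt1 and Kdr, summed to 12.6 to 26.7 CPM and leukocyte markers to 13.8 to 24.7 CPM over the 12 libraries. Most of the endothelial sum was Flt1, at 9.19 to 23.5 CPM, while Tie1 had no count and Pecam1 at most 4 counts in a library. These sums do not stand for every marker. After TGF-β1 in NC cells, the log2 fold changes of the epithelial markers were 1.36 for Krt8, 1.05 for Krt18, -1.77 for Foxa2 and -0.58 for Cdh1, of which that of Cdh1 was not called (adjusted p = 0.167 by edgeR). Those of the fibroblast markers were 1.17 for Col1a1, 2.78 for Col1a2, 0.52 for Col3a1 and -2.08 for Dcn, all called. The summed levels move with TGF-β1 as several of the ligands do, while Foxa2 and Dcn move the other way, and their part in the ligand results was not tested. In these bulk libraries, fewer cells of a type and less RNA per cell cannot be told apart.

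Within groups, most pairs of libraries differed by a chi-square per degree of freedom between 4.32 and 11.7, while the 2nd NC + TGF-β1 library differed from the others of its group by 33.9 and 61.0 and the 1st siPdcd5 library from its group by 34.2 and 26.3. No pair was close enough to be 1 library deposited again. Beside the 9 genes and the pathway genes, values without these 2 libraries are given where leaving 1 of them out ended a call or moved a called value by over 1.5 times.

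The promoters of Vegfc, Vegfa and Pdgfc are shown because, among ligands past the threshold after TGF-β1, Vegfc had the largest fitted rise in siPdcd5 cells and Pdgfc and Vegfa had the largest in NC cells. Each sequence runs from 250 bases before to 50 bases after the start site that RefSeq gives on GRCm38.p6, 5′ to 3′ on the strand of the gene. The windows are chr8:54077282-54077581 on the plus strand for Vegfc, chr17:46032328-46032627 on the minus strand for Vegfa (the upstream of 2 listed starts) and chr3:81036166-81036465 on the plus strand for Pdgfc. Capitals mark every match, on either strand, to the SMAD-binding element CAGAC, the GC box GGGCGG, the hypoxia response core ACGTG and the AP-1 sites TGACTCA and TGAGTCA.
Vegfc: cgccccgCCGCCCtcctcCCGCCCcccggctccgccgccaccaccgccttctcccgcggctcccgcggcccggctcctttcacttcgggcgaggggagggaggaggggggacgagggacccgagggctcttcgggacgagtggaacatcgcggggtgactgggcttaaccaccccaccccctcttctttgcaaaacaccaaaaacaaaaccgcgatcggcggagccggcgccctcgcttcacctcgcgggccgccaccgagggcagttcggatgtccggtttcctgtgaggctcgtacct
Vegfa: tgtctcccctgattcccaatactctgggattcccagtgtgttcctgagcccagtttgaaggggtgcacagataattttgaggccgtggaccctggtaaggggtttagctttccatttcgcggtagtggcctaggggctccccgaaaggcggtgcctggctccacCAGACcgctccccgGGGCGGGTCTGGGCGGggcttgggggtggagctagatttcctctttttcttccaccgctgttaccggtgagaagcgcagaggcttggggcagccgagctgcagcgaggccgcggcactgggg
Pdgfc: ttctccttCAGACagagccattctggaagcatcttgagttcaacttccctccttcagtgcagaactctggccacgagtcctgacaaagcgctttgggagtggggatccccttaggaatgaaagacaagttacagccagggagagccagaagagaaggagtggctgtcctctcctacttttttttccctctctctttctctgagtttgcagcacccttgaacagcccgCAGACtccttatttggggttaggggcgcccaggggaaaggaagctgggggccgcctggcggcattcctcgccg
The Vegfc window held 2 GC boxes on the minus strand and no match to the other motifs. The Vegfa window held 2 GC boxes and 2 SMAD-binding elements, where the last base of the 2nd SMAD-binding element is also the first base of the 2nd GC box. The Pdgfc window held 2 SMAD-binding elements, whose first bases lie 242 and 23 bases before the start, and none of the other motifs. Of 32851 mouse promoter windows of this length, 49.6% held a SMAD-binding element, 35.7% a GC box, 19.6% the hypoxia response core and 5.20% an AP-1 site. A match describes letters in the window and not a bound site. RefSeq promoters were found for 7 of the 9 genes, and over the 10 windows of these genes the hypoxia response core was present only at the downstream Vegfa start and an AP-1 site in none.

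After TGF-β1 in NC cells, Vegfa, Vegfc, Pdgfa, Pdgfc and Pdgfrb rose, and none of the 9 genes was called lower, although Vegfb and Pdgfra lay below their controls in every TGF-β1 library. These are 5 of 9 genes called higher at an adjusted p under 0.05, beside 8.57% of all genes tested called higher and 6.77% called lower, and the groups did not overlap for 7 of 9 genes, beside 29.6% of all genes. The median log2 fold change of the 9 genes was 0.96, beside 0.0050 for all genes. In siPdcd5 cells, TGF-β1 raised Vegfa, Vegfc, Pdgfa and Pdgfc and lowered Vegfb. These are 4 genes called higher and 1 called lower, beside 8.5% and 7.61% of all genes, and the groups did not overlap for 8 of 9 genes, beside 36.1%. The median here was 0.71, beside -0.026 for all genes. Nothing about these families is read from these counts, since the genes were chosen with these differences known.

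**Figure D1:**
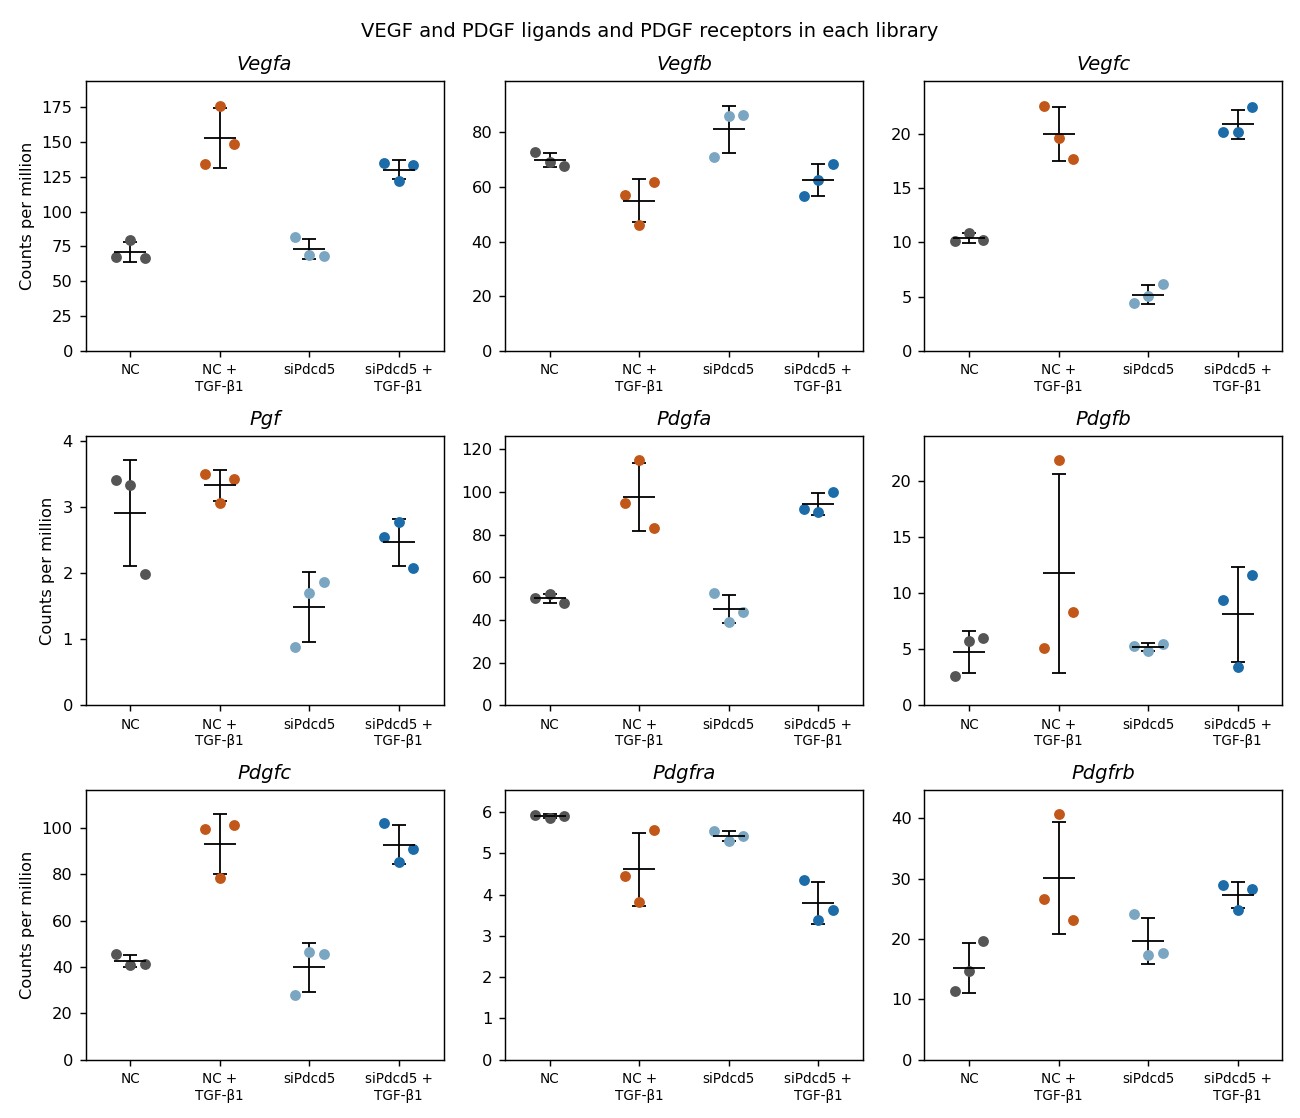
Level of each gene in CPM (vertical axis, from 0) in the 4 groups (horizontal axis), with each library as a point, the mean as a bar and the SD as whiskers (n = 3). Vegfc stands at 4.43 to 6.12 in siPdcd5 cells, below the 10.1 to 10.9 of NC cells, while both TGF-β1 groups lie between 17.7 and 22.6, and the Pdgfb points of the NC + TGF-β1 group run from 5.10 to 21.8.

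**Figure D2:**
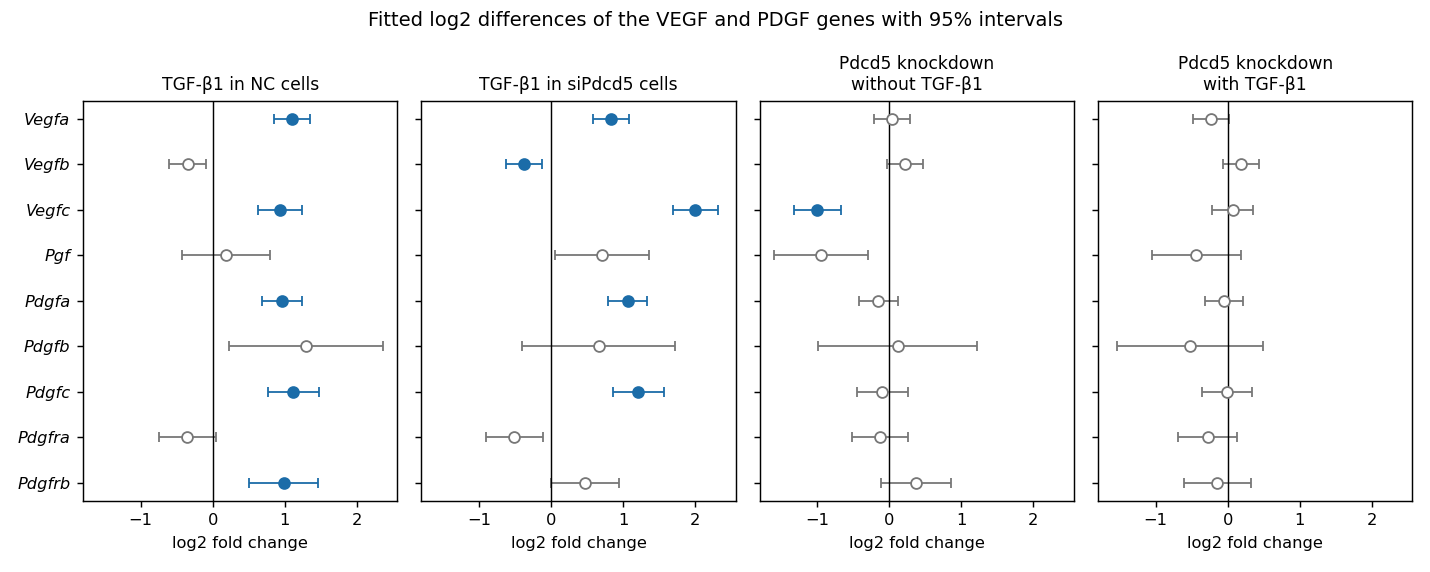
Fitted log2 fold changes (horizontal axis) of the 9 genes with 95% intervals in the 4 comparisons, each over 3 against 3 libraries of 1 model. Filled points passed an adjusted p of 0.05. After TGF-β1, Vegfa, Vegfc, Pdgfa and Pdgfc lie above 0 in both columns, and Vegfc alone is filled among the knockdown comparisons.

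Vegfa (chr17:46016993-46032369, minus strand, GENCODE on GRCm38) encodes the main vascular ligand. It stood at 67.1, 79.5 and 66.5 CPM in NC and at 134, 176 and 148 CPM in NC + TGF-β1. It stood at 81.4, 69.1 and 68.4 CPM in siPdcd5 and at 135, 122 and 133 CPM in siPdcd5 + TGF-β1. Every library with TGF-β1 was above every library without it. Vegfa rose 2.15-fold in NC cells (log2 fold change 1.11, SE 0.12, adjusted p = 1.05e-05 by edgeR's quasi-likelihood test) and 1.78-fold in siPdcd5 cells (0.83, SE 0.12, adjusted p = 1.54e-04). Knockdown changed neither level past the threshold, with a log2 difference of 0.04 (95% interval -0.21 to 0.29) without TGF-β1 and -0.23 (-0.48 to 0.013) with it.

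Vegfc (chr8:54077606-54187096, plus strand), the lymphatic ligand, was the 1 gene of the 9 whose level differed between siPdcd5 and NC cells past the threshold. Its level was 10.1, 10.9 and 10.2 CPM in NC and 4.43, 5.02 and 6.12 CPM in siPdcd5, so that all 3 knockdown libraries lay below all 3 controls. The level was 22.6, 19.6 and 17.7 CPM in NC + TGF-β1 and 20.1, 20.1 and 22.5 CPM in siPdcd5 + TGF-β1, where the groups overlapped. The order of the groups was thus siPdcd5, NC, and then the TGF-β1 groups together, whose means of 20.0 ± 2.48 and 20.9 ± 1.34 CPM (SD, n = 3 each) did not differ beyond their spread.

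On knockdown without TGF-β1, Vegfc fell by 1.00 on the log2 scale (SE 0.15, adjusted p = 0.0021 by edgeR), to a level 2.00-fold lower. This is 1 of 9 genes called lower and 0 called higher, beside 2.54% and 0.901% of all genes tested, and the groups did not overlap for 3 of 9 genes, beside 23.1%. Without the 1st siPdcd5 library, the lowest of the 3, the log2 fold change was -0.91 (adjusted p = 0.00916). TGF-β1 raised Vegfc 1.92-fold in NC cells (log2 fold change 0.94, SE 0.14, adjusted p = 2.75e-04) and 4.02-fold in siPdcd5 cells (2.01, SE 0.15, adjusted p = 3.68e-07). The difference of these TGF-β1 effects was 1.07 on the log2 scale (SE 0.20, 95% interval 0.63 to 1.50). It did not pass the threshold by edgeR over all genes (unadjusted p = 1.16e-04, adjusted p = 0.346) and passed by DESeq2 (1.08, adjusted p = 0.00374). By edgeR 0 of 12425 genes, 0%, were called for this difference, with 638 at an unadjusted p under 0.05 and 1 of them among the 9 genes, while DESeq2 called 15. The knockdown comparison and the TGF-β1 comparison in siPdcd5 cells share the 3 siPdcd5 libraries, whose Vegfc counts were 60, 91 and 95. With TGF-β1 present, Vegfc differed by 0.07 between siPdcd5 and NC cells (95% interval -0.22 to 0.36).

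The 5 genes with the pattern most like that of Vegfc over the 12 libraries, by Pearson's r of log2 CPM, were Sod3 (0.982), Ifrd1 (0.978), Basp1 (0.976), Smad7 (0.972) and Wisp2 (0.972). The libraries share their groups, so these values describe a likeness of levels. Sod3 encodes the extracellular superoxide dismutase, and Smad7 encodes an inhibitory SMAD.

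Vegfb (chr19:6982473-6987651, minus strand), which encodes a ligand of Flt1, was called lower after TGF-β1 in siPdcd5 cells only. It stood at 72.7, 69.3 and 67.7 CPM in NC and at 56.9, 46.3 and 61.7 CPM in NC + TGF-β1. It stood at 71.0, 85.9 and 86.4 CPM in siPdcd5 and at 56.8, 62.4 and 68.4 CPM in siPdcd5 + TGF-β1. The TGF-β1 groups lay below their controls without overlap in both cases. The log2 fold change was -0.35 (SE 0.12) in NC cells, where the adjusted p of 0.0671 by edgeR missed the threshold, and -0.38 (SE 0.12) in siPdcd5 cells, where the adjusted p was 0.0437. The difference of these effects was -0.029 (95% interval -0.39 to 0.33, adjusted p = 0.997), and both adjusted p-values lie near the threshold. Over 19 alternatives the adjusted p ran from 0.0349 to 0.181 in NC cells, with 5 past the threshold, and from 0.0105 to 0.176 in siPdcd5 cells, with 9 past it. Knockdown gave log2 differences of 0.21 without TGF-β1 and 0.19 with it, neither past the threshold.

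Pgf (chr12:85166635-85177790, minus strand), which encodes placental growth factor, was near the low end of what these libraries can show, with 12 to 47 counts per library. It stood at 3.42, 3.34 and 2.00 CPM in NC, 3.50, 3.06 and 3.44 CPM in NC + TGF-β1, 0.886, 1.71 and 1.87 CPM in siPdcd5, and 2.55, 2.78 and 2.08 CPM in siPdcd5 + TGF-β1. All 3 siPdcd5 libraries were below all 3 NC libraries. The log2 difference of -0.95 (SE 0.30) had an adjusted p of 0.118 by edgeR, and without the 1st siPdcd5 library, which held 12 counts, it was -0.71 (adjusted p = 0.285). With TGF-β1 the knockdown libraries again all lay below, with a log2 difference of -0.43 (SE 0.29, adjusted p = 0.557 by edgeR). After TGF-β1 the log2 fold change was 0.19 in NC cells (SE 0.29, adjusted p = 0.735). It was 0.71 in siPdcd5 cells (SE 0.31, adjusted p = 0.14), where all libraries lay above their controls. At this depth a change of Pgf on knockdown or after TGF-β1 was not shown.

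Among the PDGF ligands, Pdgfa (chr5:138976014-138997370, minus strand), which encodes a ligand of Pdgfra, stood at 50.3, 52.1 and 48.0 CPM in NC and at 94.8, 115 and 83.3 CPM in NC + TGF-β1. It stood at 52.5, 39.2 and 43.8 CPM in siPdcd5 and at 91.9, 90.8 and 100.2 CPM in siPdcd5 + TGF-β1. No library with TGF-β1 fell in the range of those without it. Pdgfa rose 1.95-fold in NC cells (log2 fold change 0.96, SE 0.13, adjusted p = 9.15e-05 by edgeR) and 2.09-fold in siPdcd5 cells (1.06, SE 0.13, adjusted p = 3.78e-05).

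Pdgfc (chr3:81036416-81214040, plus strand) encodes a ligand of Pdgfra that is secreted with a CUB domain and needs cleavage. It stood at 45.8, 41.1 and 41.5 CPM in NC and at 99.5, 78.5 and 101 CPM in NC + TGF-β1. It stood at 27.8, 46.6 and 45.5 CPM in siPdcd5 and at 102, 85.6 and 91.1 CPM in siPdcd5 + TGF-β1. The TGF-β1 groups again lay wholly above their controls, and the 1st siPdcd5 library was apart from the other two of its group. Pdgfc rose 2.18-fold in NC cells (log2 fold change 1.12, SE 0.17, adjusted p = 2.43e-04 by edgeR) and 2.32-fold in siPdcd5 cells (1.21, SE 0.17, adjusted p = 1.32e-04). Without the 1st siPdcd5 library the latter log2 fold change was 1.02 (adjusted p = 4.91e-05).

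For Pdgfa and Pdgfc the difference between siPdcd5 and NC cells did not pass the threshold. For Pdgfa it was -0.15 on the log2 scale without TGF-β1 (95% interval -0.43 to 0.12) and -0.05 with it (-0.32 to 0.22). For Pdgfc it was -0.10 without TGF-β1 (-0.45 to 0.26) and -0.0033 with it (-0.35 to 0.34).

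Pdgfb (chr15:79995874-80014977, minus strand), which encodes the ligand that binds both receptors, varied more between libraries of a group than genes of like level. It stood at 2.59, 5.71 and 5.99 CPM in NC, 5.10, 21.8 and 8.26 CPM in NC + TGF-β1, 5.24, 4.80 and 5.47 CPM in siPdcd5, and 9.40, 3.39 and 11.6 CPM in siPdcd5 + TGF-β1. The groups with and without TGF-β1 overlapped both in NC and in siPdcd5 cells. The SD of its log2 CPM within groups was 0.78, beside a median of 0.26 over 1183 genes within 0.5 log2 CPM of its mean. The log2 fold change after TGF-β1 was 1.30 in NC cells (SE 0.50, adjusted p = 0.102 by edgeR) and 0.66 in siPdcd5 cells (SE 0.49, adjusted p = 0.413). The value in NC cells rested on the 2nd NC + TGF-β1 library, without which it was 0.49 (adjusted p = 0.425). It passed the threshold under 2 of 19 alternatives, without a filter on low counts (1.29, adjusted p = 0.0337) and without the 1st NC + TGF-β1 library (1.66, adjusted p = 0.0343).

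Of the receptors, Pdgfra (chr5:75152292-75198215, plus strand) stood at 5.93, 5.86 and 5.91 CPM in NC, 4.46, 3.81 and 5.56 CPM in NC + TGF-β1, 5.54, 5.29 and 5.41 CPM in siPdcd5, and 4.36, 3.39 and 3.63 CPM in siPdcd5 + TGF-β1, on 44 to 96 counts per library. Both TGF-β1 groups lay below their controls without overlap. Neither difference passed the threshold, with log2 fold changes of -0.35 in NC cells (SE 0.18, adjusted p = 0.241 by edgeR) and -0.51 in siPdcd5 cells (SE 0.19, adjusted p = 0.0818).

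Pdgfrb (chr18:61045150-61085061, plus strand), the receptor best known from pericytes, stood at 11.3, 14.7 and 19.7 CPM in NC and at 26.6, 40.7 and 23.1 CPM in NC + TGF-β1. It stood at 24.1, 17.3 and 17.6 CPM in siPdcd5 and at 28.9, 24.8 and 28.2 CPM in siPdcd5 + TGF-β1. With TGF-β1 the libraries of both kinds of cells lay above their controls, by a narrow margin in siPdcd5 cells. Pdgfrb rose 1.98-fold in NC cells (log2 fold change 0.98, SE 0.22, adjusted p = 0.00702 by edgeR), and without the 2nd NC + TGF-β1 library the log2 fold change was 0.71 (adjusted p = 0.0138). In siPdcd5 cells the log2 fold change was 0.48 (SE 0.22, adjusted p = 0.167), and it passed the threshold in the fit of the 6 libraries compared (adjusted p = 0.0406) and without the 2nd NC + TGF-β1 library (adjusted p = 0.0497). The difference of the effects in the 2 kinds of cells was -0.51 (95% interval -1.18 to 0.16, adjusted p = 0.958). Rgs5, Cspg4 and Des, which also mark pericytes, did not pass the filter on low counts.

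Of the remaining genes, the log2 differences between siPdcd5 and NC cells without TGF-β1 were 0.12 for Pdgfb (95% interval -0.99 to 1.22), -0.13 for Pdgfra (-0.51 to 0.26) and 0.37 for Pdgfrb (-0.12 to 0.85), none past the threshold. The 3 genes whose groups did not overlap in this comparison were Vegfc, Pgf and Pdgfra, each with the siPdcd5 libraries below.

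Knockdown in the presence of TGF-β1 moved none of the 9 genes past the threshold by edgeR or DESeq2. By edgeR, 0 had an unadjusted p under 0.05, beside 13.8% of all genes tested. The shares of all genes past the threshold were 0.33% higher and 1.22% lower (41 and 151 genes, or 51 and 110 with quantile normalization). The groups did not overlap for 1 gene, Pgf, beside 18.9% of all genes, and the log2 differences of the 9 genes ran from -0.52 (Pdgfb) to 0.19 (Vegfb).

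The remaining ligands of both families are VEGF-D, listed under its older symbol Figf, and PDGF-D. Pdgfd had no count in any of the 12 libraries. Figf, like Vegfc a lymphatic ligand, moved opposite to it after TGF-β1. It stood at 221, 187 and 184 CPM in NC, 112, 102 and 111 CPM in NC + TGF-β1, 140, 152 and 145 CPM in siPdcd5, and 83.2, 92.9 and 84.1 CPM in siPdcd5 + TGF-β1. The 4 groups did not overlap with each other. Figf fell by 0.86 on the log2 scale after TGF-β1 in NC cells (SE 0.09, adjusted p = 1.33e-05 by edgeR) and fell by 0.75 in siPdcd5 cells (SE 0.09, adjusted p = 5.8e-05). Knockdown without TGF-β1 lowered it too, where it fell by 0.44 (SE 0.09, adjusted p = 0.0183), a call that held under 16 of 19 alternatives and was lost, among others, without the 1st NC library (adjusted p = 0.102) or the 1st siPdcd5 library (-0.41, adjusted p = 0.0525). With TGF-β1, knockdown gave a log2 difference of -0.32 (SE 0.09, adjusted p = 0.116 by edgeR), with no overlap of the groups, and DESeq2 called Figf lower there. With Vegfa rising and Figf falling, the ratio of their counts within a library was 0.304 to 0.425 in NC, 1.19 to 1.74 in NC + TGF-β1, 0.455 to 0.583 in siPdcd5 and 1.32 to 1.62 in siPdcd5 + TGF-β1. These counts are not divided by transcript length, so the ratio compares libraries and is not a ratio of molecules.

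**Figure D3:**
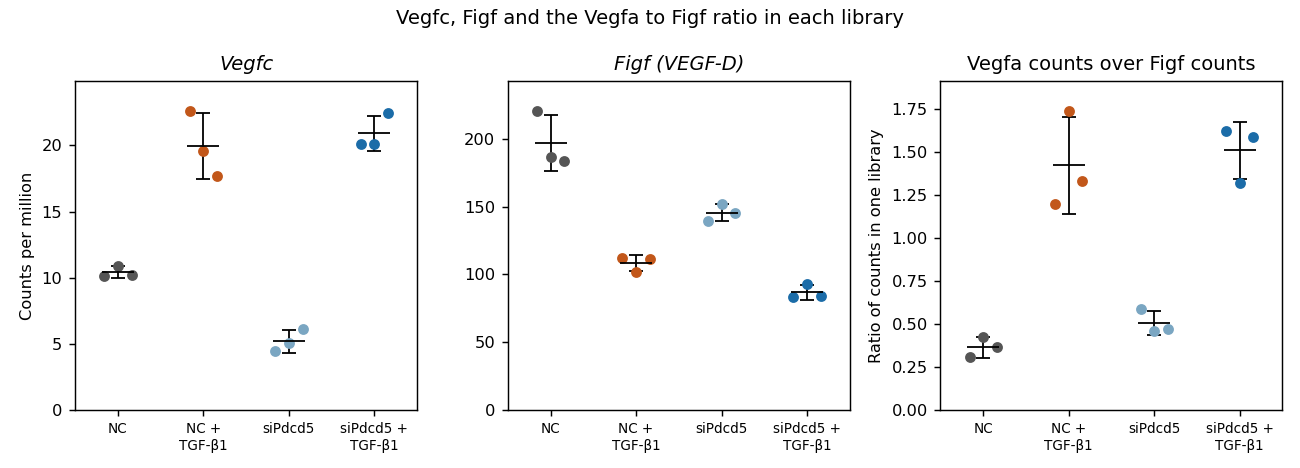
Levels of Vegfc and Figf in CPM, and the ratio of Vegfa to Figf counts within each library (vertical axes, from 0), in the 4 groups, with points for libraries, bars for means and whiskers for the SD (n = 3). Vegfc is higher and Figf lower in the TGF-β1 groups, and the ratio goes from at most 0.583 without TGF-β1 to at least 1.19 with it.

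The wider pathway was followed in 45 other genes in 6 lists, which were drawn up with earlier results of these data known. Of these, 37 passed the filter on low counts. TGF-β1 raised 6 and lowered 6 of them in NC cells, where 8.57% of all genes were called higher and 6.77% lower, and raised 2 and lowered 7 in siPdcd5 cells, where these shares were 8.5% and 7.61%. The 6 lowered in NC cells include Flt4, which passed the filter only through the NC libraries. Knockdown without TGF-β1 lowered 1 (Figf), beside 2.54% of all genes, and knockdown with TGF-β1 lowered 1 (Pdgfrl), beside 1.22%. The median log2 fold changes of the 37 genes after TGF-β1 were 0.027 in NC and 0.016 in siPdcd5 cells, beside the medians of all genes above.

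Of 5 VEGF receptors and neuropilins, TGF-β1 raised 1 and lowered 1 in NC cells and lowered 1 in siPdcd5 cells. Of all genes, 8.57% were called higher and 6.77% lower in NC cells, and 8.5% and 7.61% in siPdcd5 cells. Nrp2, a coreceptor of VEGF-C, stood at 146, 142 and 139 CPM in NC and at 182, 263 and 175 CPM in NC + TGF-β1 (log2 fold change 0.54, SE 0.17, adjusted p = 0.0452 by edgeR). Without the 2nd NC + TGF-β1 library the value of Nrp2 was 0.33 and the call was lost (adjusted p = 0.119). Flt4, the receptor of VEGF-C and VEGF-D, had 11, 12 and 13 counts in NC and 0, 3 and 0 in NC + TGF-β1. The ratio of its scaled counts, NC over NC + TGF-β1, was 11.99 (95% exact binomial interval 3.79 to 60.9, counting error only), and the adjusted p was 0.00711 by edgeR. Flt4 passed the filter on low counts only through the NC libraries, where it is highest. Its ratio, its adjusted p-values and its place among the genes lowered in NC cells therefore describe the counts and lend no support to a fall. All 3 of the counts with TGF-β1 lay in the 2nd library, and without it the group was at 0 (adjusted p = 0.00204). In siPdcd5 cells Flt4 had 2, 4 and 5 counts without TGF-β1 and 5, 1 and 2 with it. Flt1 fell by 0.57 after TGF-β1 in siPdcd5 cells (SE 0.18, adjusted p = 0.0485), from 17.7, 23.5 and 18.2 CPM to 14.2, 12.7 and 13.2 CPM. The calls of Nrp2 and Flt1 held under 9 and 8 of 19 alternatives, with adjusted p-values up to 0.141 without the 3rd NC library for Nrp2 and up to 0.186 without the 2nd siPdcd5 library for Flt1.

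Of 10 ligand processing enzymes, 5 were tested, and TGF-β1 raised 2 and lowered 1 of them in both NC and siPdcd5 cells. Beside these counts, 8.57% of all genes were called higher and 6.77% lower in NC cells, and 8.5% and 7.61% in siPdcd5 cells. Furin, a convertase that cleaves VEGF-C and several PDGF precursors, rose by a log2 fold change of 0.83 in NC cells (SE 0.21, adjusted p = 0.0136 by edgeR) and 0.72 in siPdcd5 cells (SE 0.21, adjusted p = 0.0299). Its level was 94.1, 89.0 and 95.5 CPM in NC and 175, 104 and 217 CPM in NC + TGF-β1, all above the controls. Plat, the tissue plasminogen activator, which cleaves PDGF-C, fell by 1.65 in NC cells (SE 0.41, adjusted p = 0.0133) and fell by 1.79 in siPdcd5 cells (SE 0.41, adjusted p = 0.00764). Its level was 9.28, 18.2 and 17.8 CPM in NC and 3.42, 8.52 and 2.49 CPM in NC + TGF-β1. Bmp1, a secreted metalloprotease, rose by 0.60 in NC cells (SE 0.08, adjusted p = 8.33e-05) and 0.46 in siPdcd5 cells (SE 0.08, adjusted p = 7.96e-04). The call of Furin held under 17 of 19 alternatives in NC cells (adjusted p up to 0.0613, without the 3rd NC + TGF-β1 library) and 15 in siPdcd5 cells (up to 0.0874, without the 1st siPdcd5 library, where the value was 0.55), and that of Plat in NC cells under 15 (up to 0.0616, without the 1st NC + TGF-β1 library). Pdgfc and Furin were higher and Plat lower in the same TGF-β1 libraries, and whether the cleavage of PDGF-C changed was not tested. Plau, also a plasminogen activator, moved opposite to Plat, with all TGF-β1 libraries above their controls. Its log2 fold changes of 0.80 in NC and 0.82 in siPdcd5 cells were not called by edgeR (adjusted p = 0.0652 and 0.0508). By DESeq2, 3 of these enzymes were called higher in NC cells and 3 in siPdcd5 cells. Over all 12425 genes, DESeq2 called 1227 and 1265 higher in these comparisons, against 1065 and 1056 by edgeR.

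Of 12 signalling adaptors and enzymes, all tested, TGF-β1 raised 1 and lowered 3 in NC cells and lowered 3 in siPdcd5 cells. The shares of all genes were 8.57% higher and 6.77% lower in NC cells, and 8.5% and 7.61% in siPdcd5 cells. Shc1, Gab1 and Pik3r1, which couple activated receptors to the Ras and phosphoinositide 3-kinase pathways, fell in both. Pik3r1, a regulatory subunit of phosphoinositide 3-kinase, fell by 0.82 in NC cells (SE 0.12, adjusted p = 1.52e-04 by edgeR) and fell by 0.38 in siPdcd5 cells (SE 0.11, adjusted p = 0.0336). In NC and siPdcd5 cells, Gab1 had log2 fold changes of -0.77 and -0.84 (SE 0.23 each) and Shc1 of -0.53 and -0.44 (SE 0.09 each). The call of Pik3r1 in siPdcd5 cells held under 10 of 19 alternatives (adjusted p up to 0.129, without the 3rd siPdcd5 library), and those of Gab1 under 14 in NC cells (up to 0.136, without the 1st NC + TGF-β1 library) and 16 in siPdcd5 cells (up to 0.0823, without the 1st siPdcd5 + TGF-β1 library). Without the 2nd NC + TGF-β1 library the value of Gab1 in NC cells was -1.21 (adjusted p = 8.21e-06), and without the 1st siPdcd5 library that in siPdcd5 cells was -0.72 and was not called (adjusted p = 0.0656).

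Of 8 genes listed under receptor downregulation, 7 were tested, and TGF-β1 raised Pdgfrl and Lrp1 in NC cells and lowered Ptprj in siPdcd5 cells. Among all genes, 8.57% were called higher in NC cells and 7.61% lower in siPdcd5 cells. The list is a grouping of genes, and whether Pdgfrl or the others lower a receptor here was not tested. Pdgfrl, a PDGF receptor-like gene, stood at 5.63, 7.86 and 6.37 CPM in NC, 8.36, 19.3 and 12.4 CPM in NC + TGF-β1, 4.35, 4.02 and 3.86 CPM in siPdcd5 and 5.64, 5.55 and 6.32 CPM in siPdcd5 + TGF-β1. It rose by 1.01 after TGF-β1 in NC cells (SE 0.25, adjusted p = 0.011 by edgeR), and with TGF-β1 it fell by 1.19 on knockdown (SE 0.25, adjusted p = 0.0289). Without the 2nd NC + TGF-β1 library these values of Pdgfrl were 0.65 (adjusted p = 0.0356) and -0.83 (adjusted p = 0.0434). Without TGF-β1 the siPdcd5 libraries also all lay below those of NC, a difference that was not called. After TGF-β1 in siPdcd5 cells Pdgfrl lay wholly above its controls, with a log2 fold change of 0.52 (SE 0.26, adjusted p = 0.213 by edgeR). The difference of its TGF-β1 effects was not called. Lrp1, an endocytic receptor that binds the PDGF receptor beta, rose by 0.48 in NC cells (SE 0.10, adjusted p = 0.00376), and Ptprj, a receptor-type phosphatase, fell by 0.66 in siPdcd5 cells (SE 0.21, adjusted p = 0.0406). The calls of Pdgfrl held under 16 of 19 alternatives after TGF-β1 (adjusted p up to 0.0582, without the 1st NC library) and 13 on knockdown (up to 0.158, with the 6 libraries compared), and that of Ptprj under 10 (up to 0.165, without the 2nd siPdcd5 library). Of 8 genes that control hypoxia-inducible factors, which act on Vegfa in low oxygen, 7 were tested. By edgeR or DESeq2, 0 of these were called in the 4 comparisons. At an unadjusted p under 0.05 by edgeR there were 2 after TGF-β1 in NC cells, beside 27.1% of all genes, and 2 in siPdcd5 cells, beside 28.9%. There was 1 on knockdown without TGF-β1, beside 15.7%, and there were 2 with it, beside 13.8%.

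**Figure D4:**
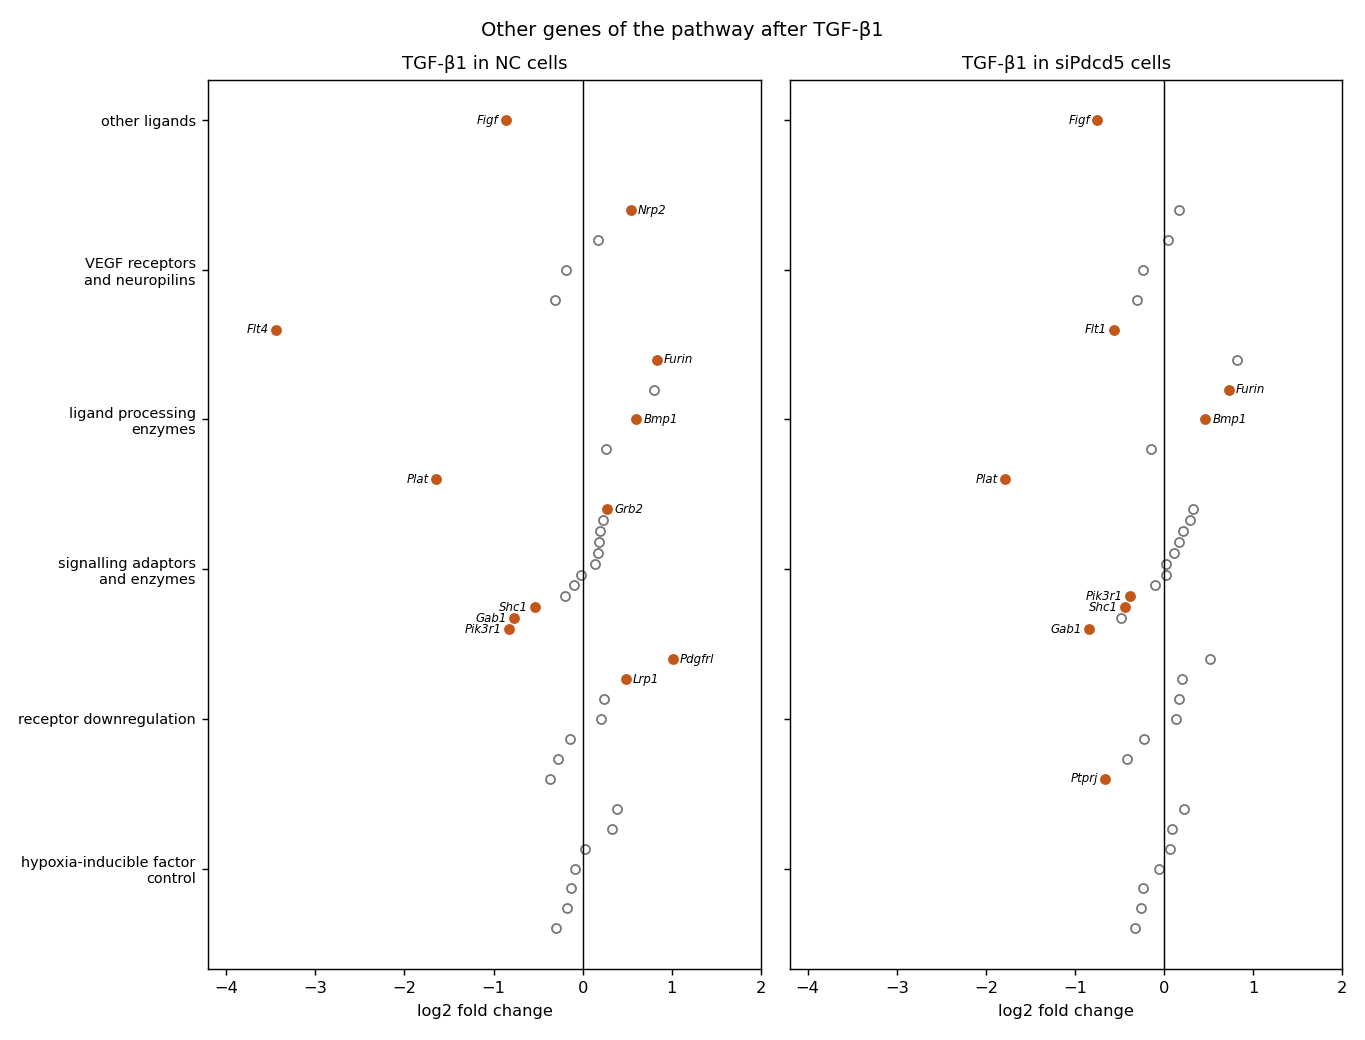
Fitted log2 fold changes (horizontal axis) after TGF-β1 in NC and siPdcd5 cells of the 37 other pathway genes tested, grouped by list and spread within a list in order of value, each from 3 against 3 libraries. Filled, named points passed an adjusted p of 0.05: 12 in NC cells and 9 in siPdcd5 cells, and the Flt4 point rests on 3 counts in the NC + TGF-β1 group, so that its fitted place depends on the model.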

How the data were processed

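Whole read counts per gene symbol were used as the authors deposited them for 12 QuantSeq 3′ libraries. The authors aligned single-end reads with Bowtie2 (2.3.4.3), counted unique and multiple alignments with Bedtools (2.26) and named quantile normalization in edgeR, which the counts do not include. The build is mm10 in the submitters' processing notes, and the annotation and use of strand are not given in the sources used here. Annotated antisense genes overlap Pdgfa, Pdgfb, Pdgfc and Pdgfra at least 16457 bases from the 3′ end of each.

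Groups came from the labels. R 4.3.3 with edgeR 4.0.16 (TMM, default filter, quasi-likelihood test, 4-group model, 8 residual degrees of freedom, Benjamini-Hochberg over 12425 genes, adjusted p under 0.05) was used, with limma 3.58.1 and DESeq2 1.42.0 as alternatives, and was tested on simulated data. Log2 CPM used a prior count of 2. Each SE is the log2 fold change over the root of F. Intervals at 95% use the degrees of freedom of the fit. Reads carry no molecular identifiers, so floors cover counting error only.

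The 9 genes and all lists were chosen with earlier results of these data known. The text names all 9 genes, Pdcd5, up to 3 called genes of each pathway list with the largest fold changes, and the 5 genes most like Vegfc, whose group means spanned the widest range. Plau, which was not called, is named beside Plat. Alternatives were other normalizations, tests and filters, the 6 libraries compared, a replicate block and each library left out. Positions come from GENCODE M21 and promoters from RefSeq (GRCm38.p6).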

Additional observations from a re-analysis of the deposited data

How the results depend on the processing

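The rises of Vegfa, Vegfc, Pdgfa and Pdgfc after TGF-β1 in NC and siPdcd5 cells, that of Pdgfrb in NC cells and the fall of Vegfc on knockdown kept their direction and stayed past the threshold under all 19 alternatives run for each. The call of Vegfb in siPdcd5 cells did not (above). By DESeq2, 1 of the 9 genes (Vegfc) was called for the difference of the TGF-β1 effects, against 0 by edgeR. The labels do not say that a replicate number marks a shared culture, and deviations of same-numbered libraries correlated between -0.324 and 0.166. In the fit with the replicate block, 4 genes were called after TGF-β1 in siPdcd5 cells instead of 5, since Vegfb had an adjusted p of 0.0555, and the other counts were unchanged. Of the single-gene values that left out no library, the log2 difference of Pdgfc on knockdown with TGF-β1 (-0.0033) reversed, to 0.011 with upper-quartile factors, 0.021 with quantile normalization, 0.0053 without a filter, 0.0072 with 6 libraries and 2.7e-05 with the block; the cause was not tested. Leaving out 1 library reversed only values that were not called, whose ranges over all alternatives follow. After TGF-β1 in NC cells, Pgf ranged from -0.028 to 0.32. On knockdown without TGF-β1, Vegfa ranged from -0.051 to 0.13, Pdgfb from -0.18 to 0.31 and Pdgfc from -0.22 to 0.10. With TGF-β1, Vegfc ranged from -0.016 to 0.17, Pdgfa from -0.16 to 0.083, Pdgfb from -0.88 to 0.29, Pdgfc from -0.11 to 0.059 and Pdgfrb from -0.31 to 0.14. The difference of the TGF-β1 effects ranged from -0.14 to 0.057 for Vegfb, -0.0068 to 0.24 for Pdgfa, -0.99 to 0.17 for Pdgfb, -0.095 to 0.22 for Pdgfc and -0.27 to 0.00012 for Pdgfra. Over all genes, knockdown without TGF-β1 called 112 higher and 315 lower by edgeR and 206 and 508 by DESeq2, with 167 to 667 in all when 1 library was left out. With TGF-β1 it called 41 and 151 by edgeR, 129 and 330 by DESeq2, 6 and 38 with 6 libraries, 19 and 88 with the block, and 73 to 322 in all when 1 library was left out. Depth limits Pgf, Pdgfra and Flt4, whose libraries hold at most 96 counts each.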

Other observations

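The libraries in which Pdgfb stood above or below its group mean were also those in which some other genes did. Over the deviations of log2 CPM from the group means in the 12 libraries, 85 of 12425 genes had a Pearson's r with Pdgfb over 0.9 and 9 had one under -0.9. The genes most like it were Tdrd7 (0.996), Ctgf (0.986), Ppp4c (0.978), Sdhd (0.976) and Pmpcb (0.975), which were chosen after their values were seen. Ctgf encodes connective tissue growth factor. Its level was 140, 410 and 204 CPM in NC + TGF-β1, where Pdgfb stood at 5.10, 21.8 and 8.26 CPM, and 141, 68.0 and 181 CPM in siPdcd5 + TGF-β1, where Pdgfb stood at 9.40, 3.39 and 11.6 CPM. Both genes were highest in the 2nd NC + TGF-β1 library, which differed from the others of its group (above). The relation without that library was not tested, and no like count was made for other genes. The 12 deviations are not independent, since those of a group sum to 0, and the relation is a description.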
